A study of Homo sapiens with 32 samples.

Results

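The genes described here were 9 parts of the Hedgehog and bone morphogenetic protein (BMP) pathways, namely PTCH1, SMO, SUFU, GLI1, GLI2, GLI3, BMP4, BMP5 and RUNX2, out of 48804 genes in the count table. They were taken as a listed set by symbol, and all 9 were found. RNA was sequenced from MDA-MB-468 cells, an established human triple-negative breast cancer line grown as a monolayer, after PBS (control), 0.5 μM salinomycin (Sal, a polyether antibiotic), 15 μM dasatinib (Das, a Src kinase inhibitor) or both drugs together (S + D). Each treatment was given for 24 h or 72 h, and 4 libraries described as biological replicates were made per condition, which gives 32 over 8 conditions. The study used this design to ask how the transcriptome of these cells responded to the drugs alone and combined. All groups share the same line, and the controls received PBS while, per the study's methods, the drug stocks were dissolved in DMSO.

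In the Hedgehog pathway a secreted ligand binds the receptor PTCH1 and thereby releases SMO, a transmembrane protein that passes the signal into the cell. The cytoplasmic protein SUFU holds the GLI transcription factors back, GLI1 and GLI2 acting mainly as activators and GLI3 mainly as a repressor when no ligand is bound, and transcription of PTCH1 and GLI1 themselves is a classical readout of an active pathway. BMP4 and BMP5 are secreted growth factors of the TGF-β superfamily that signal through SMAD proteins, and RUNX2 is a transcription factor of bone formation that lies downstream of BMP signalling and is also studied in breast cancer.

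Library totals ranged from 25692561 to 42769687 counts. EGFR, which this line carries in many copies, stood at 2790 to 5920 CPM, which are counts scaled to the library total, and SMAD4, which the line lacks, reached no more than 17 counts in any library. Of the markers of other cell types, COL1A2, COL3A1, DCN, LUM, PTPRC, CD3E and HBB never exceeded 5 counts. PDGFRA reached 1.14 CPM, PDGFRB 2.22, CDH5 1.02, KDR 7.73 and CD14 32.4 CPM. At 72 h the summed endothelial markers ran from 5.60 to 8.02 CPM in the controls, 0.863 to 2.62 with Sal, 1.04 to 1.83 with Das and 0.352 to 0.759 with S + D, and the summed immune markers from 25.1 to 32.5, 6.02 to 18.0, 2.70 to 4.58 and 3.77 to 5.61 CPM. The summed fibroblast markers ran from 0.620 to 1.39 CPM in the controls, 0.142 to 1.09 with Sal, 0.404 to 1.13 with Das and 0.736 to 2.25 with S + D. The part of these genes in the results was not tested. In each condition 1 library carried no replicate number, and these unnumbered libraries deviated together from their group means (r 0.61 to 0.69 at 24 h and 0.53 to 0.63 at 72 h over all pairs). Where a call changed without them, the value in the numbered libraries is given too.

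All values below are CPM after TMM normalization, and all fold changes are log2 values against the group named, from the quasi-likelihood test of edgeR, with p-values adjusted by Benjamini-Hochberg over every gene tested. A gene was called at an adjusted p under 0.01. GLI2 did not pass the filter on low counts at either time, which left 8 of the 9 genes in the fits. P-values measure the spread between these libraries, and in bulk RNA a loss of cells that express a gene cannot be told apart from less of its RNA per cell. BMP4 and BMP5 are named by the study among the genes that the drugs suppressed in these libraries, and RUNX2 was picked with earlier results of them known, so their direction here is not independent evidence.

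At 72 h in the controls, the levels per kilobase of exon were 3.33 CPM for SUFU, 3.06 for BMP4, 2.48 for RUNX2, 2.36 for SMO, 2.25 for GLI3 and 1.62 for PTCH1. BMP5 at 0.243, GLI1 at 0.0916 and GLI2 at 0.00284 CPM per kilobase were far lower. The repressor GLI3 was thus measured far above the activators GLI1 and GLI2 per length. The plot of levels by library shows all 32 values of each gene.

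**Figure D1:**
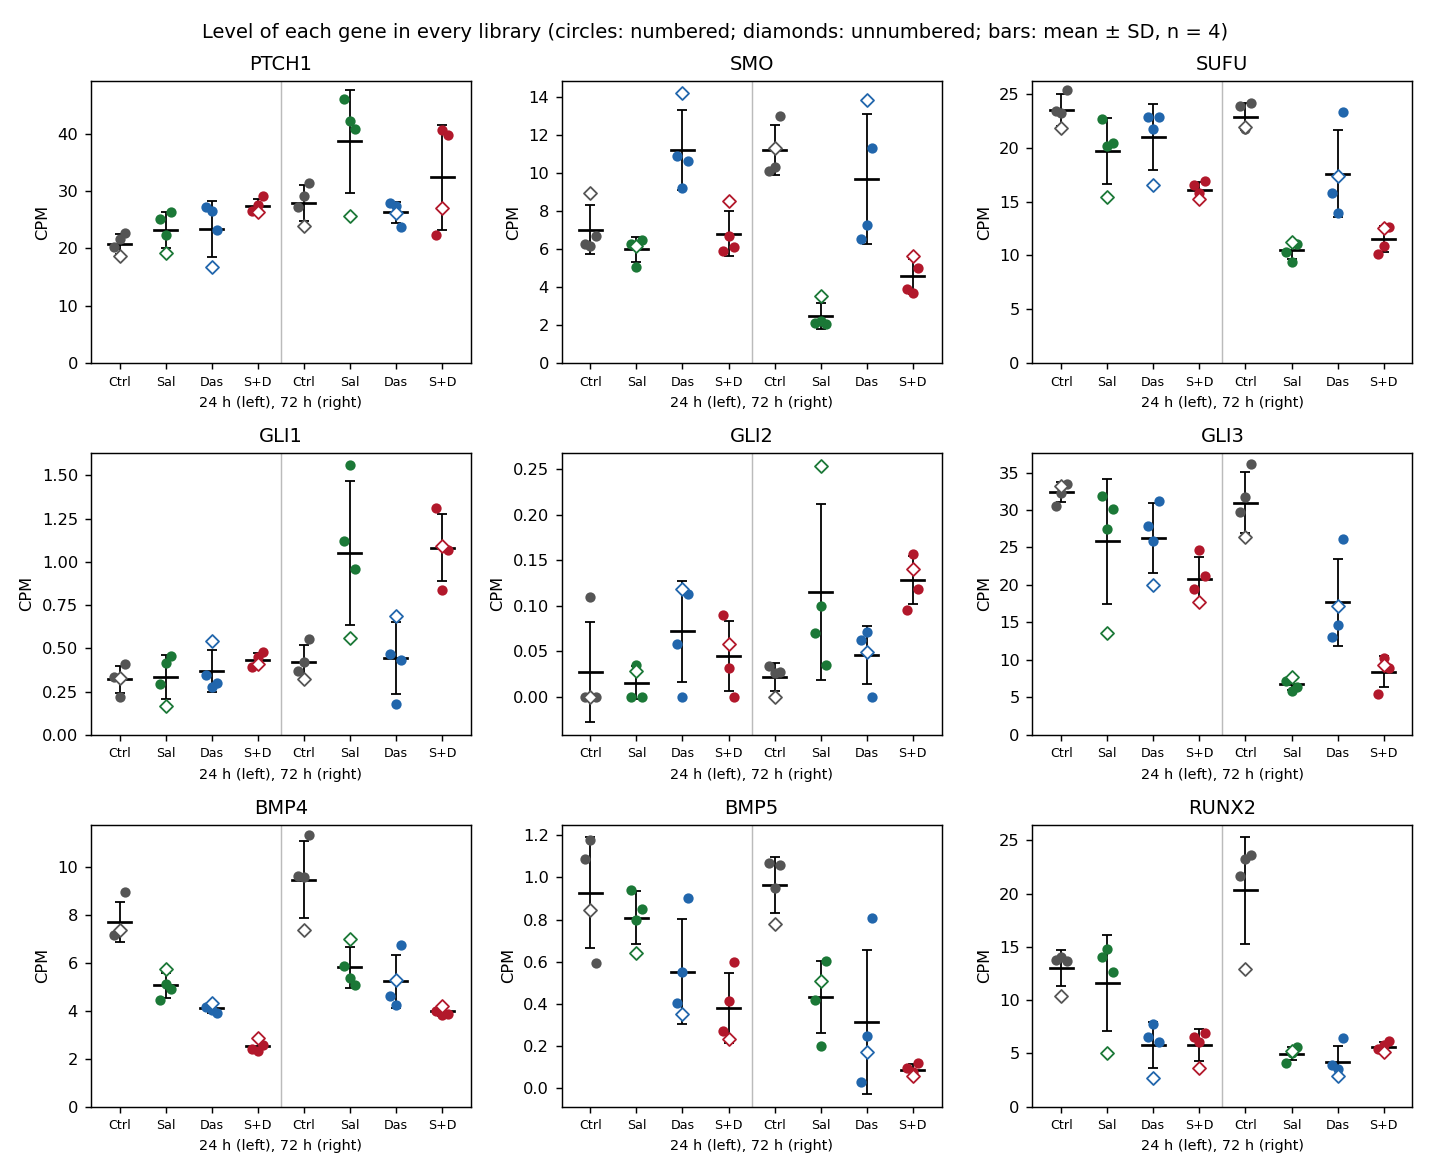
Level of the 9 genes in CPM (linear axis) in each of 32 libraries, by treatment at 24 h and 72 h. Circles are numbered libraries, open diamonds the unnumbered library, and bars the mean ± SD of 4. SMO, SUFU, GLI3, BMP4, BMP5 and RUNX2 stand lower in every Sal and S + D library of 72 h than in every control of that time. GLI1 and GLI2 stand higher, on few counts. The share of all genes that separate in this way is not given.

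Sal for 72 h lowered 5 of the 8 tested genes and raised 1. The log2 changes were -2.21 for GLI3, -2.19 for SMO, -2.04 for RUNX2, -1.15 for SUFU, -0.72 for BMP4 and 1.29 for GLI1. Over all genes tested, 26.8% were lower and 26.3% higher in the same comparison. The first 3 of these also passed the study's second cutoff, an absolute log2 fold change above 1.5, as did 18.7% of all genes. PTCH1 (0.45) and BMP5 (-1.16) missed the threshold. The median over the 8 genes was -1.16, beside 0.004 over all genes.

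S + D for 72 h lowered 6 of the 8 and raised 1, against 27.9% lower and 27.0% higher among all genes. The log2 changes were -3.43 for BMP5, -1.89 for GLI3, -1.87 for RUNX2, -1.32 for SMO, -1.27 for BMP4, -1.01 for SUFU and 1.34 for GLI1. BMP5, GLI3 and RUNX2 passed both cutoffs, as did 20.2% of all genes, and the median was -1.29 beside 0.012. Das for 72 h lowered 3 of the 8, namely RUNX2 (-2.29), BMP4 (-0.86) and GLI3 (-0.81), and raised none, against 9.36% lower and 10.5% higher among all genes. Of these RUNX2 alone passed both cutoffs, as did 5.02% of all genes, and the median was -0.60 beside 0.022.

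At 24 h fewer of the genes were called than at 72 h with each treatment, by edgeR over all libraries. For Das this was 2 against 3, and DESeq2 called 3 at both times. In the numbered libraries 4 were called with Das at 24 h, while GLI3 was not called with Das at 72 h. With Sal, 1 of 8 fell, which was BMP4 (2.23% of all genes fell and 4.55% rose). With Das, BMP4 fell and SMO rose, where 6.88% of all genes fell and 6.99% rose. With S + D, BMP4, SUFU and BMP5 fell, where 16.5% of all genes fell and 17.1% rose, and BMP4 also passed both cutoffs, as did 6.06% of all genes. The S + D count at 24 h was 6 with the replicate number as a block, which added RUNX2, GLI3 and PTCH1, and likewise 6 in the 3 numbered libraries. The shares of all genes above belong to the fit of all libraries without the block. Those under the other settings are not given, so the higher counts cannot be read as particular to these genes.

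**Figure D2:**
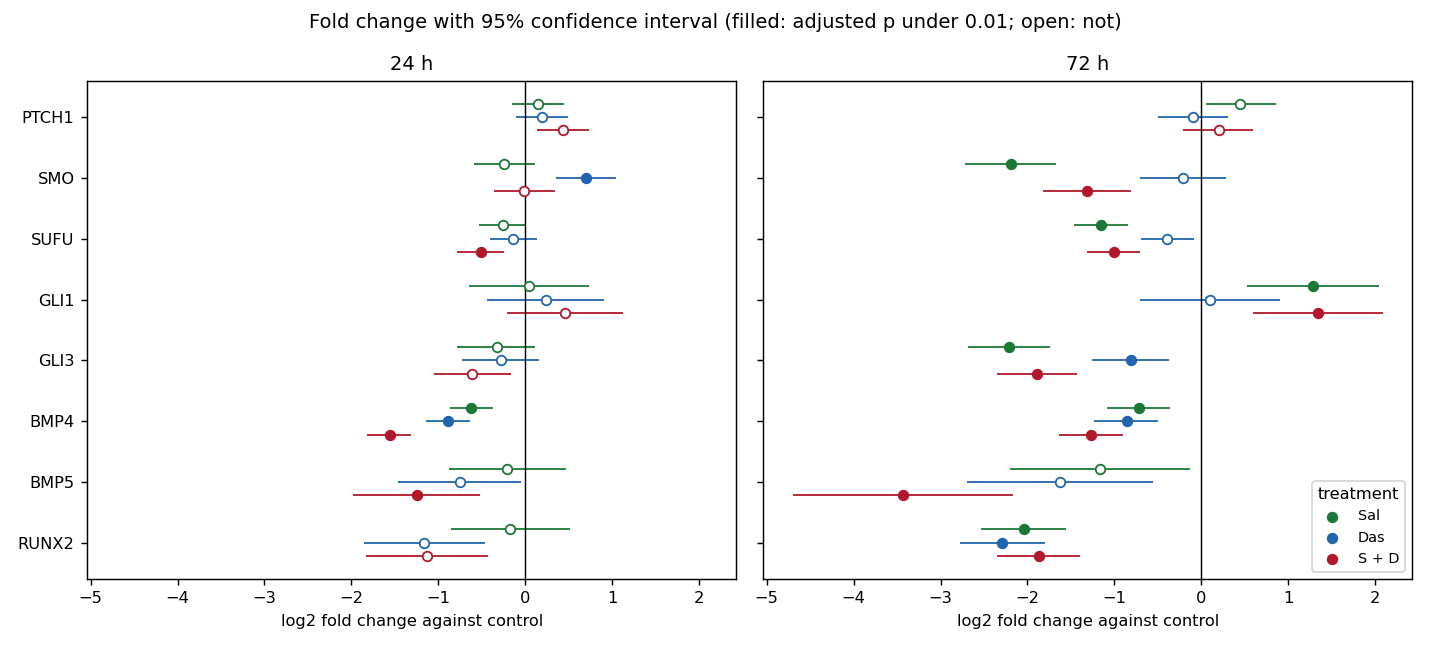
Log2 fold change of the 8 tested genes against the control of the same time, with 95% confidence intervals, for Sal, Das and S + D at 24 h (left) and 72 h (right). Filled circles passed an adjusted p of 0.01. At 72 h the Sal and S + D values of SMO, SUFU, GLI3, BMP4 and RUNX2 lie below 0 and those of GLI1 above it.

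PTCH1 (ENSG00000185920; GRCh37 chr9:98205262-98279339, minus strand), the ligand receptor that inhibits SMO and is itself induced by GLI factors, was called in no comparison over all libraries. In the 72 h controls it measured 27.3, 29.1, 31.4 and 24.0 CPM (replicates 1, 2 and 3 and the unnumbered library, the order kept from here on). With Sal it measured 46.1, 42.3, 40.8 and 25.7 CPM, and with S + D 22.3, 40.7, 39.8 and 27.0 CPM. The 3 numbered Sal libraries stood above every control and the unnumbered one within their range, and the S + D libraries were split between 2 high and 2 within or below the controls. Neither change was called, the Sal change being 0.45 (95% confidence interval 0.05 to 0.86, adjusted p = 0.0478) and the S + D change 0.20 (-0.21 to 0.60, adjusted p = 0.373). At 24 h S + D gave 26.6, 27.6, 29.1 and 26.3 CPM against 20.2, 21.6, 22.7 and 18.7 CPM in the controls, with no overlap. That change of 0.43 (SE 0.14) had an adjusted p of 0.0203, and 0.00117 with the replicate number as a block, which would call it, as would the numbered libraries (0.39, adjusted p = 0.000306). Das for 24 h was called in the numbered libraries only (0.30, adjusted p = 0.00471, against 0.19 and 0.371 with all libraries). About 4.11% of PTCH1 exon bases are shared with an antisense gene, and use of strand in the counting is not given.

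The promoter of PTCH1 is shown because the gene is a known target of GLI factors. The RefSeq table (GRCh38.p14, another build than the files' GRCh37) held windows of 300 bases, 250 of them before the start, for 7 of the 9 genes, and none for GLI1 or GLI3. The GLI motif GACCACCCA was searched on both strands and found in 1 of 5 PTCH1 windows, in no window of the other 6 genes, and in 0.236% of all 35116 windows. The bases before that start are given 5′ to 3′ on the gene's strand (GRCh38.p14 chr9:95509267-95509516, minus strand), with the motif, here on the opposite strand and beginning 172 bases before the start, in capitals.
PTCH1: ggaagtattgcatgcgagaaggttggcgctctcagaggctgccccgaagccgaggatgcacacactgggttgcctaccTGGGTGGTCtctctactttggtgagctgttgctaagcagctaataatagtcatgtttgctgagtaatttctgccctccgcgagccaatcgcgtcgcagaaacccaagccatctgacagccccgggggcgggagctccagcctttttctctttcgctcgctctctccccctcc

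SMO (ENSG00000128602; chr7:128828474-128853386, plus strand), the signal transducer under PTCH1, fell with Sal at 72 h in every library. The 72 h controls measured 10.1, 10.3, 13.0 and 11.3 CPM and the Sal libraries 2.10, 2.19, 2.05 and 3.51 CPM. With S + D the values were 3.87, 3.69, 5.01 and 5.61 CPM, above every Sal library and below every control. Sal lowered SMO 4.57-fold (log2 -2.19, SE 0.25, adjusted p = 9.57e-07) and S + D 2.49-fold (log2 -1.32, SE 0.24, adjusted p = 0.000117). Das gave 6.50, 7.26, 11.3 and 13.8 CPM, which spans the controls, and a change of -0.21 (-0.70 to 0.28, adjusted p = 0.509).

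At 24 h the order of SMO was another. The controls measured 6.26, 6.17, 6.65 and 8.93 CPM, Das 10.9, 9.21, 10.6 and 14.2 CPM, and S + D 5.91, 6.68, 6.11 and 8.50 CPM. Every Das library stood above every control, and 2 of the S + D libraries lay among the controls and 2 just below them. Das raised SMO by 0.70 (SE 0.16, adjusted p = 0.00499), a call that was kept in 2 of 8 fits with a library left out, at adjusted p-values up to 0.022. S + D was lower than Das by 0.71 (adjusted p = 0.00716, likewise kept in 2 of 8 such fits) and did not differ detectably from control (-0.01, -0.36 to 0.34, adjusted p = 0.965). SMO shares 2.72% of its exon bases with an antisense gene.

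SUFU (ENSG00000107882; chr10:104263729-104393292, plus strand), the inhibitor that binds GLI proteins in the cytoplasm, also fell with Sal and S + D at 72 h. The controls measured 23.9, 21.7, 24.2 and 21.9 CPM, Sal 10.3, 9.36, 11.1 and 11.2 CPM, and S + D 10.1, 10.9, 12.6 and 12.5 CPM. No treated library of either group reached the lowest control. The change was -1.15 with Sal (SE 0.15, adjusted p = 3.4e-06) and -1.01 with S + D (SE 0.15, adjusted p = 1.18e-05). With Das the libraries measured 15.8, 13.9, 23.3 and 17.4 CPM, 3 below and 1 within the controls, and the change of -0.39 was not called (adjusted p = 0.0484), but without Das replicate 3 it was -0.53 (adjusted p = 0.0024). At 24 h SUFU was 16.5, 15.8, 16.9 and 15.2 CPM with S + D against 23.4, 23.2, 25.4 and 21.8 CPM in the controls (log2 -0.51, SE 0.13, adjusted p = 0.00418), a call kept in 4 of 8 fits with a library left out.

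GLI1 (ENSG00000111087; chr12:57853568-57866051, plus strand), an activator and a target of the pathway, rested on few counts. The 72 h controls held 11, 16, 20 and 12 counts, Sal 32, 47, 27 and 22, and S + D 41, 32, 36 and 39. All 8 libraries treated with Sal or S + D exceeded every control in counts, and in CPM as well, there by as little as 0.559 against 0.556 CPM. GLI1 rose 2.45-fold with Sal (log2 1.29, SE 0.36, adjusted p = 0.00455) and 2.53-fold with S + D (log2 1.34, SE 0.36, adjusted p = 0.00319). With a library left out the calls were kept in 3 of 8 and 5 of 8 fits, at changes of 1.03 to 1.51 and 1.23 to 1.51. Das held 15, 5, 14 and 28 counts and a change of 0.10 (-0.70 to 0.90, adjusted p = 0.864). No treatment gave a called change of GLI1 at 24 h, where all libraries held 6 to 23 counts.

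GLI2 (ENSG00000074047; chr2:121493199-121750229, plus strand), the other main activator, was close to absent, with 0 to 10 counts in any library. At 72 h the controls held 1, 1, 1 and 0 counts, Sal 2, 3, 1 and 10, and S + D 3, 6, 4 and 5. In CPM every Sal and S + D library stood above every control, with means of 0.115 and 0.128 against 0.0219 CPM. An exact permutation test of either difference (n = 4, two-sided) gave p = 0.0286, the smallest it allows, and 0.0858 after adjustment over the 6 comparisons made. Counts of this size allow no firmer statement, and no fold is given.

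GLI3 (ENSG00000106571; chr7:42000547-42303699, minus strand), the repressor, fell with Sal at 72 h about as far as SMO. The controls measured 29.8, 31.8, 36.1 and 26.4 CPM, Sal 7.18, 5.78, 6.41 and 7.78 CPM, and S + D 5.41, 10.2, 8.89 and 9.26 CPM. The treated libraries stood far below the lowest control. Sal lowered GLI3 4.62-fold (log2 -2.21, SE 0.22, adjusted p = 2.7e-07) and S + D 3.71-fold (log2 -1.89, SE 0.22, adjusted p = 9.63e-07). Das gave 13.1, 14.6, 26.1 and 17.2 CPM, all below the lowest control, replicate 3 closest to it. Its change of -0.81 (SE 0.21, adjusted p = 0.00715) was kept in 2 of 8 fits with a library left out and was not called in the numbered libraries (adjusted p = 0.0146). At 24 h S + D gave 19.5, 24.6, 21.2 and 17.7 CPM against 30.5, 32.3, 33.5 and 33.2 CPM, with no overlap. That change of -0.61 had an adjusted p of 0.0269, and -0.63 with 0.00195 when the replicate number was a block, and it was called in the numbered libraries as well (-0.55, adjusted p = 2.41e-05).

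BMP4 (ENSG00000125378; chr14:54416454-54425479, minus strand), a secreted ligand of BMP receptors, was the gene of the set called with every treatment at both times. At 24 h the controls measured 7.14, 7.35, 8.94 and 7.36 CPM and Sal 4.45, 5.10, 4.91 and 5.74 CPM. Das gave 4.15, 4.04, 3.89 and 4.30 CPM and S + D 2.38, 2.33, 2.57 and 2.87 CPM. The 4 groups did not overlap, and stood in the order control, Sal, Das and S + D. The changes were -0.62 (SE 0.12, adjusted p = 0.00213), -0.89 (SE 0.12, adjusted p = 4.67e-05) and -1.56 (SE 0.12, adjusted p = 6.14e-08). S + D was lower than Sal by 0.94 (adjusted p = 3.97e-05) and lower than Das by 0.67 (adjusted p = 0.0014). The Sal call was lost without control replicate 3, the highest control (-0.52, adjusted p = 0.0137).

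At 72 h the BMP4 values were 9.61, 9.58, 11.3 and 7.35 CPM in the controls, 5.85, 5.35, 5.07 and 6.99 CPM with Sal, 4.60, 4.25, 6.75 and 5.27 CPM with Das and 4.00, 3.82, 3.85 and 4.21 CPM with S + D. Every treated library stood below every control. S + D lowered BMP4 2.41-fold (log2 -1.27, SE 0.17, adjusted p = 6.42e-06), and its difference from Sal (-0.55, -0.92 to -0.18, adjusted p = 0.061) and from Das (-0.40, -0.77 to -0.04, adjusted p = 0.0679) was not called. BMP4 shares 16.3% of its exon bases with an antisense gene, so part of its counts may belong to that gene.

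BMP5 (ENSG00000112175; chr6:55618451-55740388, minus strand), a ligand of the same family, held few counts. At 72 h the controls held 32, 36, 38 and 29 counts, Sal 12, 6, 17 and 20, and S + D 3, 3, 4 and 2. Das held 1, 7, 26 and 7 counts. The S + D libraries were lowest in each case but 1, Das replicate 1 holding fewer counts than any of them, and Das replicate 3 overlapped the controls in CPM (0.808 against 0.781). With S + D the change was -3.43 (SE 0.60, -4.70 to -2.17, adjusted p = 8.17e-05), kept in 8 of 8 fits with a library left out. Sal (-1.16, adjusted p = 0.0462) and Das (-1.62, adjusted p = 0.0204) were not called, but without Das replicate 3 the Das change was -2.65 (adjusted p = 0.000232). At 24 h BMP5 held 9, 13, 20 and 8 counts with S + D and 36, 43, 19 and 36 in the controls, which overlap (-1.25, SE 0.34, adjusted p = 0.00713, kept in 2 of 8 fits with a library left out).

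RUNX2 (ENSG00000124813; chr6:45295894-45632086, plus strand), the transcription factor downstream of BMP signals, fell with all 3 treatments at 72 h. The controls measured 21.6, 23.2, 23.6 and 12.9 CPM and Sal 4.10, 5.01, 5.63 and 5.18 CPM. Das gave 3.86, 3.57, 6.40 and 2.89 CPM and S + D 5.41, 5.74, 6.20 and 5.08 CPM. All 12 treated libraries stood at or below 6.40 CPM, under the lowest control. The falls were 4.12-fold with Sal (log2 -2.04, SE 0.23, adjusted p = 8.11e-07), 4.89-fold with Das (log2 -2.29, SE 0.23, adjusted p = 2.46e-06) and 3.66-fold with S + D (log2 -1.87, SE 0.23, adjusted p = 1.6e-06). S + D was not called different from Sal (0.17, -0.31 to 0.65) or from Das (0.42, -0.06 to 0.90). The latter was called in 1 of 8 fits with a library left out, that without Das replicate 3 (0.72, adjusted p = 0.00988). Sal was not set against Das.

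At 24 h the RUNX2 calls depended on the setting and the tool. The controls measured 13.8, 14.0, 13.7 and 10.4 CPM, Sal 14.0, 14.8, 12.6 and 5.04 CPM, Das 6.55, 7.73, 6.04 and 2.71 CPM, and S + D 6.54, 6.10, 6.91 and 3.63 CPM. All Das and S + D libraries stood below every control, while of the numbered Sal libraries 2 lay among the controls and 1 above them, and the unnumbered library was the lowest of each group. Over all libraries the Das change of -1.16 (adjusted p = 0.0179) and the S + D change of -1.13 (adjusted p = 0.0105) missed the threshold by edgeR. Of 8 fits with a library left out, 0 called either change. Of the 7 other settings, 4 called the Das change and 7 the S + D change. DESeq2 on all libraries called both changes (adjusted p = 0.00278 and 0.00146). With the replicate number as a block they were -1.24 (adjusted p = 8.71e-06) and -1.18 (adjusted p = 5.74e-06), and in the numbered libraries -0.99 (adjusted p = 1.03e-07) and -1.07 (adjusted p = 1.52e-08). Sal gave -0.17 (-0.85 to 0.52, adjusted p = 0.803) over all libraries and 0.01 in the numbered ones. The block also called S + D below Sal at 24 h (-0.91, adjusted p = 0.000234, against -0.96 and 0.0458 without it).

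The promoters of RUNX2 and BMP4 are shown because each held a RUNX motif, so they were picked by the match. The motif TGTGGT, searched on both strands, was found in 1 of 2 RUNX2 windows, 1 of 3 BMP4 windows and 13.1% of all windows, and in no window of the other 5 genes. It does not overlap the GLI motif. Capitals mark it in the bases before the start (GRCh38.p14 chr6:45328080-45328329, plus strand, where it begins 191 and 87 bases before the start on the opposite strand, and chr14:53954489-53954738, minus strand, where it begins 41 bases before the start). The RUNX2 window held 4 matches, of which the 2 before the start are marked. SMO, SUFU and BMP5 were also called lower with S + D at 72 h and held no match, and GLI3 had no window. Over so few windows the matches lie near the share of all windows and are no result about these genes. A match is a run of letters and no evidence of binding.
RUNX2: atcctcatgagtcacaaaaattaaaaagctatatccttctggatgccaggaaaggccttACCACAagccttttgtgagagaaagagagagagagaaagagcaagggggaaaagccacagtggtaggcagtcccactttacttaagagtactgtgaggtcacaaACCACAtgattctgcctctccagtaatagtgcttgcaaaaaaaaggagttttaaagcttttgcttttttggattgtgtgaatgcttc
BMP4: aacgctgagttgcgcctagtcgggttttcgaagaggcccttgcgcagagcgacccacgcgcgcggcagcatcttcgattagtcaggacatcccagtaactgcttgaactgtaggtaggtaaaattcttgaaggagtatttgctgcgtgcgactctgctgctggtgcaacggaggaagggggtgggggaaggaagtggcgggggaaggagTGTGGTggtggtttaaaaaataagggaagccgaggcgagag

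Whether the drugs combined as the sum of their separate log2 changes was tested as an interaction at 72 h. Over all libraries RUNX2 was called, 1 of the 8 genes, where 7.52% of all genes were. Its separate changes summed to -4.33 and the measured S + D change was -1.87, a difference of 2.46 (SE 0.32, 1.78 to 3.14, adjusted p = 0.000156) that was kept in all 16 fits with a library left out. S + D also stood above the sum for GLI3 by 1.13 (adjusted p = 0.0159) and for SMO by 1.09 (adjusted p = 0.033), neither called, although each was in 2 of 16 fits with a library left out. In the numbered libraries SMO was called (1.41, adjusted p = 0.00477) and GLI3 was not (1.21, adjusted p = 0.0239). With the replicate number as a block both SMO and GLI3 were called, at values given below with the dependence on processing. For PTCH1, SUFU, GLI1, BMP4 and BMP5 the interaction ran from -0.65 to 0.52, at adjusted p-values of 0.0845 or more.

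**Figure D3:**
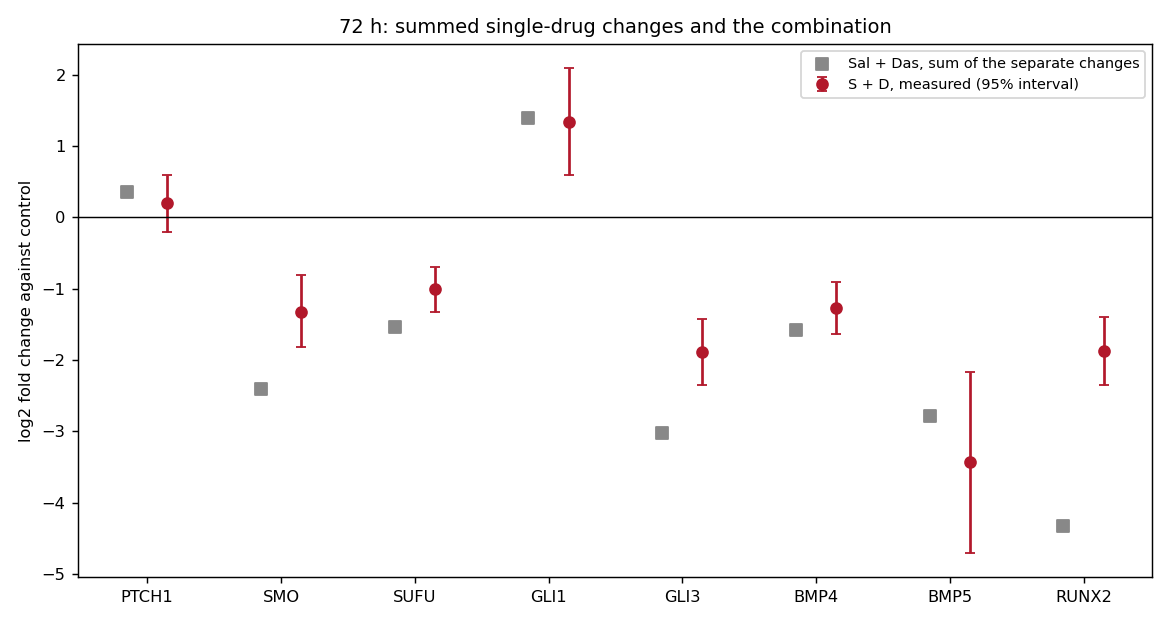
Log2 fold change against control at 72 h for the 8 tested genes. Grey squares are the Sal and Das changes added together, and red circles the measured S + D change with its 95% confidence interval. RUNX2 shows the widest gap, -4.33 summed against -1.87 measured.

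Set directly against the single drugs at 72 h, S + D differed from Das in 4 of the 8 genes (32.1% of all genes) and from Sal in 0 of 8 (3.01% of all genes). Compared with Das, GLI3 was lower by 1.08 (adjusted p = 0.000634), SMO by 1.10 (adjusted p = 0.00122) and SUFU by 0.62 (adjusted p = 0.00229, kept in 7 of 8 fits with a library left out), and GLI1 was higher by 1.24 (adjusted p = 0.00879, kept in 1 of 8 fits with a library left out). Compared with Sal by edgeR, 3 genes had an unadjusted p under 0.05 and DESeq2 called 2. The largest of these differences were SMO, higher with S + D by 0.88 (0.35 to 1.40, adjusted p = 0.0362), and BMP5, lower by 2.27 (-3.63 to -0.91, adjusted p = 0.0366). These comparisons share the S + D libraries. At 24 h, in comparisons added after the data were seen, S + D differed from Sal in BMP4 alone (12.9% of all genes) and from Das in BMP4 and SMO (8.49% of all genes), where the block added SUFU (-0.36, adjusted p = 0.00503). In the numbered libraries S + D was also called lower than Sal for GLI3 (-0.46, adjusted p = 0.000288), SUFU (-0.36, adjusted p = 0.000275) and RUNX2 (-1.08, adjusted p = 3.6e-08), and lower than Das for GLI3 (-0.40, adjusted p = 0.00131) and SUFU (-0.48, adjusted p = 2.59e-05).

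The responses at the 2 times were compared as differences of differences over all 32 libraries. The Sal response became more negative from 24 h to 72 h for 4 of the 8 genes, where 13.7% of all genes did. The differences were -1.94 for SMO (SE 0.3, adjusted p = 1.58e-05), -1.86 for GLI3 (SE 0.31, adjusted p = 3.6e-05), -1.86 for RUNX2 (SE 0.41, adjusted p = 0.000736) and -0.87 for SUFU (SE 0.19, adjusted p = 0.000657). The S + D response did so for SMO (-1.26, adjusted p = 0.00211) and GLI3 (-1.23, adjusted p = 0.00323), where 10.1% of all genes did. BMP4 gave no detectable difference between the times with Sal (-0.09, -0.50 to 0.32), Das (0.05, -0.36 to 0.46) or S + D (0.35, -0.07 to 0.76). For Das 0 of 8 genes were called by edgeR (0.226% of all genes), 2 with an unadjusted p under 0.05 and 0 by DESeq2. In the controls alone 0 of 8 differed between 72 h and 24 h (2.76% of all genes), with 4 at an unadjusted p under 0.05 and 0 by DESeq2. The nearest was SMO, which was higher at 72 h by 0.68 (0.25 to 1.10, adjusted p = 0.0431), and RUNX2 was higher by 0.65 (0.07 to 1.22, adjusted p = 0.175). In the numbered libraries both were called in the controls, SMO at 0.81 (adjusted p = 0.00119) and RUNX2 at 0.72 (adjusted p = 0.00116). There the Das response was also called for RUNX2 (-1.29, adjusted p = 0.00055) and SMO (-1.12, adjusted p = 0.00358), and the S + D response for RUNX2 (-0.90, adjusted p = 0.00165).

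The other genes of the pathways were taken from 10 lists, read at 72 h beside the shares of all genes given above. Of the Hedgehog ligands and the genes for their release, SHH, IHH and others were too low to test, and the 3 that could be tested fell with both Sal and S + D, 1 of them with Das. SCUBE3, a secreted protein that helps release the ligand, went from 2.91 ± 0.573 CPM (SD, n = 4) in the controls to 0.151 ± 0.0688 with Sal and 0.0793 ± 0.0558 with S + D. HHAT, the acyltransferase that adds palmitate to the ligand, changed by -1.70 (adjusted p = 6.66e-07) and -1.56 (adjusted p = 1.29e-06). The co-receptors were divided, 2 of 5 rising and 2 falling with Sal and again with S + D. CDON rose with Sal (2.05), Das (1.33) and S + D (2.20), and BOC, of the same receptor family, fell with Sal (-2.33) and S + D (-2.27).

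Among 23 tested signal transducers, 8 rose and 4 fell with Sal, 1 rose and 1 fell with Das, and 6 rose and 6 fell with S + D, with medians of 0.00, -0.01 and -0.09. The S + D counts lie near the shares of all genes, 27.0% higher and 27.9% lower. GPR161, a ciliary receptor that restrains the pathway, fell with Sal (-2.03, adjusted p = 2.16e-05) and with S + D (-1.40, adjusted p = 0.000591). ARRB1, a β-arrestin, fell with Sal (-2.04), Das (-0.59) and S + D (-2.19). IFT172, a protein of transport in the cilium, rose with Sal (1.3), Das (0.51) and S + D (0.87). Of the 10 tested genes listed as Hedgehog targets, 3 rose and 4 fell with Sal, 3 rose and 1 fell with Das, and 3 rose and 4 fell with S + D. Those that fell most included FOXM1, a transcription factor of cell division, which went from 144 ± 17.7 CPM to 15.3 ± 7.55 with Sal and 10.1 ± 2.26 with S + D. MYCN, a transcription factor of cell growth, fell with Sal (-3.30), Das (-1.69) and S + D (-3.26). CREB3L1, a transcription factor held in the endoplasmic reticulum, fell with Sal (-2.81) and S + D (-3.34) and rose with Das (1.0, adjusted p = 0.00337). NKX6-1, a homeobox gene of the ventral neural tube, rose from 0.438 ± 0.107 CPM to 15.1 ± 0.892 with Sal, 14.9 ± 1.97 with S + D and 3.46 ± 2.34 with Das.

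Of the genes listed as BMP targets none rose. With Sal 9 of 11 tested fell, with Das 3 of 11 and with S + D 9 of 11, and the medians were -1.53, -0.46 and -1.31 beside 0.004, 0.022 and 0.012 over all genes. ID1, an inhibitor of differentiation factors and a direct SMAD target, went from 46.4 ± 29.6 CPM to 5.85 ± 2.58 with Sal, 4.40 ± 1.5 with S + D and 5.86 ± 3.43 with Das. ID3, of the same family, changed on the log2 scale by -1.20 under Sal, -0.80 under S + D and -1.58 under Das, all called. DLX1, a homeobox gene, fell with Sal (-3.66) and S + D (-2.78). Whether BMP signalling had a part in these falls was not tested. SMAD4, which the line lacks, reached no more than 17 counts in any library, as given above. Of 9 tested BMP inhibitors 5 fell and 1 rose with Sal, 3 fell with Das and 7 with S + D, with medians of -0.93, -0.30 and -1.07. They were led by SOSTDC1, a secreted BMP antagonist, at -3.34, -2.13 and -3.47, and included BAMBI, a decoy receptor, at -1.04 with Sal and -1.21 with S + D.

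The BMP ligands beside BMP4 and BMP5 went both ways. With Sal 1 of 6 rose and 3 fell, and with S + D 1 rose and 1 fell. Among all genes 26.3% rose and 26.8% fell with Sal, and 27.0% rose and 27.9% fell with S + D. Over so few ligands these counts are no result about the list. BMP6 rose from 0.653 ± 0.386 to 3.78 ± 0.347 and 5.86 ± 0.582 CPM, while BMP3 fell from 2.12 ± 0.543 to 0.370 ± 0.215 and 0.0983 ± 0.105 CPM. BMP7 fell with Sal (-1.14, adjusted p = 1.97e-06). With Das 0 of 6 ligands were called by edgeR, 3 with an unadjusted p under 0.05 and 0 by DESeq2. Of the receptors and SMADs 3 of 10 fell with Sal and 4 with S + D, among them the type II receptor BMPR2 (-0.95 and -1.04) and SMAD1 (-1.08 and -1.18). The Sal count lies near the 26.8% of all genes that fell. With Das 0 of 10 were called, 1 with an unadjusted p under 0.05 and 1 by DESeq2. BMPR1B, a type I receptor, fell with S + D (-1.87, adjusted p = 3.72e-07).

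Of 11 tested RUNX family members and partners, 7 fell and 2 rose with Sal, 2 fell and 1 rose with Das, and 6 fell and 2 rose with S + D. CBFB, the subunit that RUNX proteins bind DNA with, went from 75.6 ± 3.81 CPM to 23.9 ± 2.19 with Sal, 21.2 ± 0.961 with S + D and 42.4 ± 11.4 with Das. For the co-repressor TLE3 the log2 change was -1.58 under Sal, -2.15 under S + D and -0.93 under Das, all called. Of the genes listed as RUNX2 targets none was called lower. Of 5 tested, 2 rose with Sal and 3 with S + D, and with Das 0 were called by edgeR, 4 with an unadjusted p under 0.05 and 1 by DESeq2. COL1A1, a collagen chain, rose from 28.1 ± 4.54 CPM to 66.2 ± 12 with Sal and 87.1 ± 22.7 with S + D. Of the 6 fibroblast markers 2 could be tested with S + D, of which 1 rose and 1 fell, and their part in this result was not tested. MMP9, a secreted protease, rose from 0.0137 ± 0.0158 to 0.700 ± 0.262 and 0.586 ± 0.0828 CPM.

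**Figure D4:**
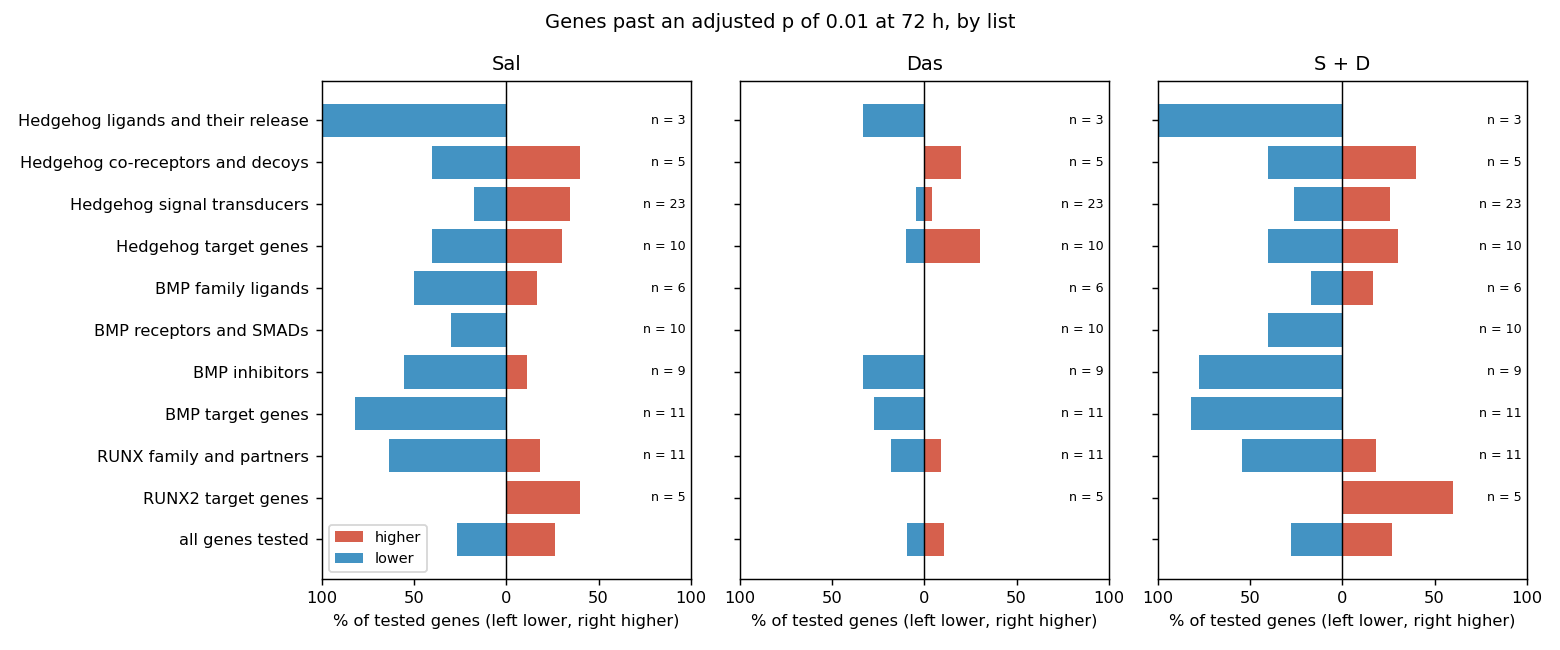
Percentage of the tested genes of each list that passed an adjusted p of 0.01 at 72 h, lower to the left and higher to the right, for Sal, Das and S + D. The bottom bar is the share of all genes tested, and n is the number of list genes tested. The BMP target bars reach 9 of 11 genes lower with Sal and S + D.

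Across the 32 libraries, which share treatments, the genes with the profile most like each member were found by the correlation of log2 CPM. The unnumbered libraries among them deviated together, as given above. GLI3 was most like HIP1 (r = 0.979) and TCF7 (r = 0.973), and SUFU was most like TCF7 (r = 0.968), CPNE2 and KIAA1549L (r = 0.966 each). SMO was most like NSMF (r = 0.954), GPR161 (r = 0.95) and CACNB3 (r = 0.949). GPR161 also stands in the list of signal transducers. BMP4 was most like SULT1A2 (r = 0.938), CHST14 (r = 0.936) and FBLN2 (r = 0.914), PTCH1 most like FOXJ2 (r = 0.923), FTO (r = 0.895) and KIF27 (r = 0.881), and RUNX2 most like SPRED1 (r = 0.917), ITGA6 (r = 0.914) and MME (r = 0.905). The low genes had the lower values, with BMP5 most like CENPP (r = 0.89), ALDH1B1 (r = 0.883) and OLFM4 (r = 0.875), and GLI1 most like HPN (r = 0.874), the unnamed gene ENSG00000273145 (r = 0.871) and SULT1C2 (r = 0.864).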

How the data were processed

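Total RNA from MDA-MB-468 cells was made into TruSeq libraries, 4 per condition. Per the labels and the submitters' processing notes, reads were handled with bcl2fastq 2.19, STAR 2.5.2 on GRCh37, Cufflinks 2.1.1 and DESeq2. The authors deposited whole-number counts per gene for all 32 libraries in 1 table, not normalized. The counting program, annotation and use of strand are not given in the sources used here. Library totals were 25692561 to 42769687.

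Identifiers were paired with symbols (46537 of 48804 matched). The members, lists and tests were chosen with earlier results of these data known. Genes were filtered with filterByExpr (minimum count 10), scaled by TMM and fitted with edgeR 4.0.16 (R 4.3.3) per time point, 16 libraries each, or over all 32 for comparisons between times (17227 genes). Calls were made at an adjusted p under 0.01, and separately at that p with a log2 change beyond 1.5 either way, cutoffs the study also used. GLI2 was tested by exact permutation. Named were all 9 members in every comparison, at most 2 rising and 2 falling genes per list and treatment at 72 h, and the 3 genes most like each member by Pearson r (prior count 2), a few of which are not reported here. Alternatives were DESeq2 1.42.0, RLE scaling, no filter, a replicate block, numbered libraries only, all libraries in 1 fit, only the groups compared, and leaving out each library. Of the genes listed, GDF2 and PECAM1 were not matched. Coordinates are from GENCODE on GRCh37.

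Same-numbered libraries at 24 h had a positive r over every pair (0.16 to 0.31, 0.20 to 0.36 and 0.19 to 0.36 for replicates 1, 2 and 3). Pairs of different numbers ran from -0.56 to 0.41, with a median of -0.07, so the ranges overlap. Values were centred on their group mean, so the shared deviation of the unnumbered libraries can itself raise r between numbered ones. The check therefore cannot show that the numbers pair the samples. The main tests at both times were therefore made without pairing. At 24 h pairing was an assumption of the blocked fit alone, and the blocked value is given where it changed a call. At 72 h pairs went down to -0.04, and the numbers were not taken to pair the samples.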

Additional observations from a re-analysis of the deposited data

Results flagged for a closer look

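In 72 groups of 4 libraries (9 genes in 8 conditions), 4 held a library far from the other 3 by Dixon's rule, where chance gives about 1 in 20. SMO with Sal at 72 h stood at 3.51 CPM in the unnumbered library, above the others at 2.05 to 2.19 CPM. RUNX2 in the 24 h controls stood at 10.4 CPM in the unnumbered library, below 13.7 to 14.0 CPM. BMP4 in the 24 h controls stood at 8.94 CPM in replicate 3, above 7.14 to 7.36 CPM, and the Sal call of BMP4 at 24 h was lost without it. GLI2 in the 24 h controls stood at 0.11 CPM in replicate 2, which is 4 counts against 0 in the others.

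The response to a treatment differed between 72 h and 24 h, by the test of that difference in edgeR, for 6 pairs of gene and treatment. With Sal the differences were -1.94 for SMO, -1.86 for GLI3, -1.86 for RUNX2 and -0.87 for SUFU on the log2 scale. With S + D they were -1.26 for SMO and -1.23 for GLI3. Each was kept in all 16 fits with a library left out.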

How the results depend on the processing

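The counts of called genes were recomputed under 7 other settings, 100 counts in all, of which 72 stayed within 1.5 times. The shares of all genes called under these settings, or with a library left out, are not given here. A moved count therefore cannot be read as particular to these genes. With the replicate number as a block the count moved to 6 for S + D against control at 24 h, 2 for S + D against Sal at 24 h, 5 for Das against control and 1 for S + D against Sal at 72 h, 3 for the interaction, and 1 each for the Das response over time and the controls over time. In the numbered libraries only it was 4 for Das, 6 for S + D, 4 for S + D against Sal and 4 for S + D against Das at 24 h, 2 for the interaction, 2 for the Das response and 2 for the controls over time. DESeq2 gave 5 for S + D at 24 h, 2 for S + D against Sal at 72 h and 2 for the interaction. No filter gave 0 for Sal and 1 for S + D against Das at 24 h, and 2 for the interaction. All 32 libraries in 1 fit gave 1 for S + D against Das at 24 h, 2 for S + D against Sal at 72 h and 3 for the interaction. Only the groups compared gave 0 for Sal, 1 for Das, 5 for S + D and 1 for S + D against Das at 24 h, and 2 for S + D against Das at 72 h. The cause was not tested. At 72 h, where the numbers were not taken to pair the samples, the block otherwise changed no count by over 1.5 times. It added SUFU (adjusted p = 0.0098) and BMP5 (0.00388) with Das, SMO (0.00271) for S + D against Sal, and GLI3 (0.00495) and SMO (0.00196) for the interaction.

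With a library left out in turn, the counts ran from 0 to 1 for Sal, 1 to 2 for Das, 1 to 3 for S + D, 1 to 2 for S + D against Sal and 1 to 2 for S + D against Das at 24 h, from 2 to 5 for Das at 72 h and from 1 to 3 for the interaction. The sign turned only for changes that were not called over all libraries. In the numbered libraries RUNX2 became 0.01 for Sal and -0.08 for S + D against Das at 24 h. GLI1 became -0.31 for Das, -0.18 for S + D against Sal and 0.13 for the interaction at 72 h, BMP4 became -0.03 for the Das response, and GLI3 became 0.02 for the controls over time. With a library left out GLI1 ran from -0.15 to 0.28 (Sal) and -0.02 to 0.37 (Das) at 24 h. At 72 h it ran from -0.19 to 0.36 (Das), -0.17 to 0.31 (S + D against Sal) and -0.30 to 0.25 (interaction), and its Das response over time from -0.46 to 0.13. RUNX2 ran from -0.31 to 0.10 (Sal) and -0.24 to 0.21 (S + D against Das) at 24 h, SMO from -0.14 to 0.11 (S + D at 24 h) and BMP5 from -1.02 to 0.40 (interaction). BMP4 ran from -0.21 to 0 (Sal response) and -0.10 to 0.15 (Das response), and in the controls over time SUFU ran from -0.07 to 0.01, GLI3 from -0.14 to 0.01 and BMP5 from -0.10 to 0.19.

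Depth limits GLI1, GLI2 and BMP5 above all, with no more than 47, 10 and 43 counts in any library.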

Other observations

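Replicate 3 of the Das libraries at 72 h was the highest of its group for 5 of the 8 tested genes, namely SUFU, GLI3, BMP4, BMP5 and RUNX2. Without it the Das comparison at 72 h called 5 genes rather than 3, with SUFU at -0.53 (adjusted p = 0.0024 by edgeR), BMP5 at -2.65 (0.000232), GLI3 at -1.04 (0.000314), BMP4 at -1.0 (0.000159) and RUNX2 at -2.56 (1.43e-07). The share of all genes called in that fit is not given.

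The unnumbered library of Sal at 24 h was the lowest of its group for 6 of the 8 tested genes. It held RUNX2 at 5.04 CPM, inside the range of the Sal libraries at 72 h (4.10 to 5.63 CPM), and GLI3 at 13.6 CPM, where the numbered Sal libraries of 24 h ran from 27.5 to 31.9 CPM. These libraries were picked after their values were seen.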
